A study of Danio rerio with 4 samples.

Results

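Solute carriers are membrane proteins that move sugars, amino acids, lactate, nucleosides, fatty acids, vitamins, metals and ions across cell and organelle membranes, and they are numbered by family. The retina depends on them heavily: photoreceptors burn glucose and release lactate, Müller glia buffer acid and exchange amino acids with neurons, and inner mitochondrial carriers link the cytosol to the mitochondrial matrix. Amino acid exchangers of family 7 work as pairs, in which a light chain does the transport and a heavy chain of family 3 brings it to the plasma membrane. The genes described here are those whose symbol in the deposited tables begins with slc and a digit, except the families slc1a, slc6a, slc8a, slc17a and slc32a, which hold neurotransmitter, glutamate and sodium-calcium carriers. This choice went by name and not by a measured value, although earlier results of these data were known when it was made. It gave 33 genes of 19 families out of 2075 genes listed in any of the tables, with 44 entries in all. Although chosen as carriers of metabolism, they also include carriers of bicarbonate, chloride, calcium and potassium.

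Retinae were taken whole from 10 months old wild-type zebrafish. The 4 groups were uninjured retina, retina 12 hours post injury (12 hpi), retina 4 days post injury (4 dpi), and retina 4 days post injury from fish kept in 100 µM valproic acid, an inhibitor of histone deacetylases, for those 4 days (4 dpi + VPA). How the injury was made is not given in the labels used here. The labels hold 1 sample per group and the tables give 1 value per group, so no difference below has a replicate check and no test could be run, although the design text of the series speaks of duplicates.

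Each injured group was set against the same uninjured value by the authors, in FPKM, the fragments scaled to feature length and to all mapped fragments. A gene is called listed higher or lower where it stands in the authors' deposited tables for that group, which hold entries with an unadjusted p of at most 0.05 and more than 1 FPKM in the higher group. A carrier that is not listed may have been unchanged, low or untested. The 4 dpi tables hold whole genes, and the tables for 12 hpi and 4 dpi + VPA hold single transcripts. The SE printed below beside the authors' values was computed here, by dividing their log2 fold change by their test statistic. With 1 value per group, neither this SE nor the authors' p can be read as a spread between fish. Sequencing depth is unknown. In a whole tissue, fewer cells of a type and less RNA per cell cannot be told apart.

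At 12 hpi, 6 carriers were listed higher and 5 lower. The 4 dpi tables held 8 higher carriers and 6 lower ones, and those of 4 dpi + VPA held 8 and 11. The share higher was thus 54.5%, 57.1% and 42.1%, against 64.1%, 60.3% and 57.5% of all listed genes in the same comparisons. The carrier shares rest on 11, 14 and 19 carriers, and their difference from the other genes was not tested. The shares of all listed genes are also the background for the counts of pathway and marker genes below. The authors marked 0 of these carriers significant in any comparison. At 4 dpi they did mark SLC45A4 and *slc6a14*, which the rule left out and which are described below. Of all listed genes they marked 3.07% at 4 dpi and 0% at 12 hpi and at 4 dpi + VPA. The lowest q of a carrier chosen by the rule was 0.997 at 12 hpi, 0.438 at 4 dpi and 0.415 at 4 dpi + VPA in the authors' deposited tables. Entries with a p of at most 0.01 made up 9.09%, 21.4% and 21.1% of the carriers in the authors' deposited tables, against 26.4%, 32.8% and 23% of all listed genes.

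**Figure D1:**
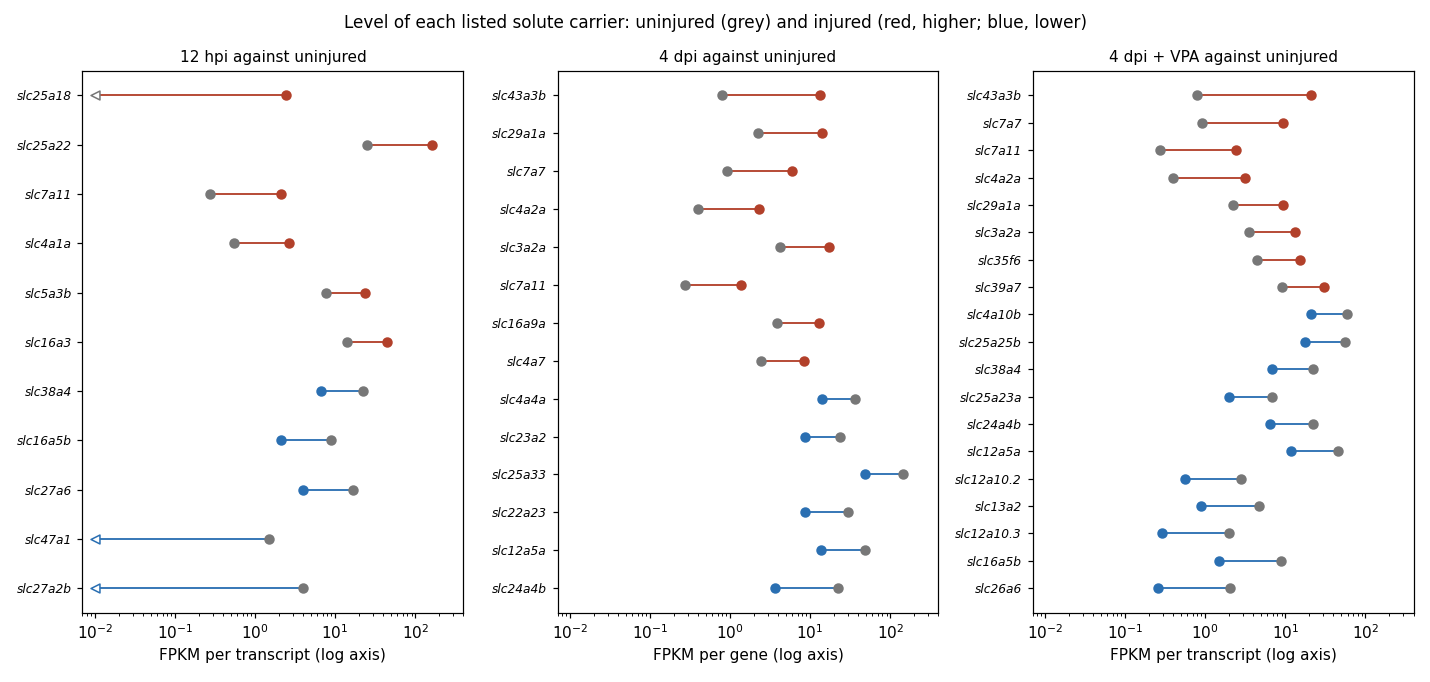
FPKM on a log axis of every listed solute carrier in uninjured retina (grey) and in the injured group (red where higher, blue where lower), 1 panel per comparison, 1 value per group and no error bars. Open triangles stand for values under 0.01 FPKM. Red pairs span from 0.275 to 160 FPKM where both values are above 0.01, and blue pairs reach 143 FPKM in uninjured retina.

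The median size of the changes was smaller for the carriers than for all listed genes in both directions of each comparison. The gap was wider among genes listed higher, and small among those listed lower at 12 hpi and at 4 dpi + VPA. This difference was not tested. On the scale of log2((FPKM + 0.1)/(uninjured FPKM + 0.1)), carriers listed higher had a median change of 2.35 at 12 hpi, 2.15 at 4 dpi and 2.36 at 4 dpi + VPA, beside 3.24, 2.66 and 2.74 for all genes listed higher. Those listed lower had medians of -2.07, -1.67 and -1.94, beside -2.13, -1.93 and -1.99 for all genes listed lower. Of all genes listed higher, 113 of 381, 104 of 865 and 106 of 595 were at 0 in uninjured retina. Of the carriers listed higher, these were 1 of 6, 0 of 8 and 0 of 8. The change of a gene at 0 depends on the 0.1 FPKM added, so the medians of genes listed higher are not strictly alike. The carriers listed lower started from higher levels, with median uninjured FPKM of 8.83, 32.9 and 8.83 at 12 hpi, 4 dpi and 4 dpi + VPA, while those listed higher started from 4.10, 1.57 and 1.57 FPKM. All listed genes had the same order, at 18.1, 24.4 and 17.0 FPKM for genes listed lower and 1.07, 2.19 and 1.65 FPKM for genes listed higher, and the authors' filter on the higher group acts on this difference.

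**Figure D2:**
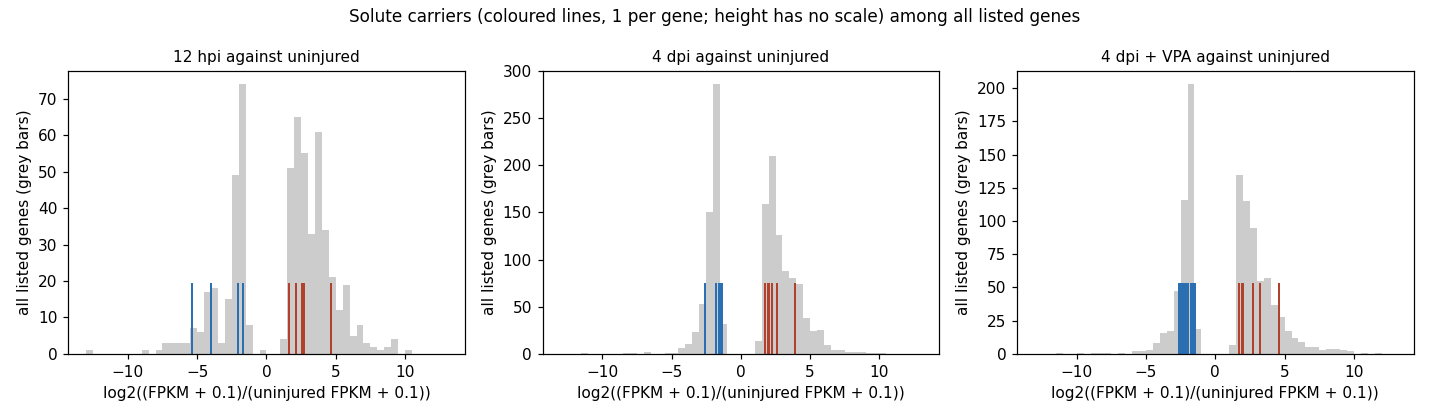
Histograms of log2((FPKM + 0.1)/(uninjured FPKM + 0.1)) for all listed genes (grey bars, number of genes) with a coloured line at the change of each solute carrier (red higher, blue lower), 1 panel per comparison. Carriers lie within the range of the listed genes, from -5.36 to 4.66 at 12 hpi, from -2.58 to 3.87 at 4 dpi and from -2.61 to 4.57 at 4 dpi + VPA.

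By substrate, amino acid carriers of families 3 and 7 and carriers of nucleosides and nucleobases were listed higher at 4 dpi and at 4 dpi + VPA. The other listed gene of the amino acid class, *slc38a4*, was lower at 12 hpi and at 4 dpi + VPA. Of all listed genes, 60.3% and 57.5% were higher at 4 dpi and at 4 dpi + VPA. The class of nucleosides and nucleobases held only 2 listed genes. Of these, *slc43a3b* was placed in it after its values were seen, so the shared direction of this class is no independent result. Carriers of bicarbonate, protons and chloride were listed in both directions, with 2 of each at 4 dpi, and at 4 dpi + VPA with 1 gene up and 5 down. Mitochondrial carriers had 2 members higher at 12 hpi, 1 lower at 4 dpi and 2 lower at 4 dpi + VPA. Both listed fatty acid carriers were lower at 12 hpi. Across all comparisons 15 carriers were listed higher, 18 lower and 0 in both directions. The same count over all listed genes was not made.

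**Figure D3:**
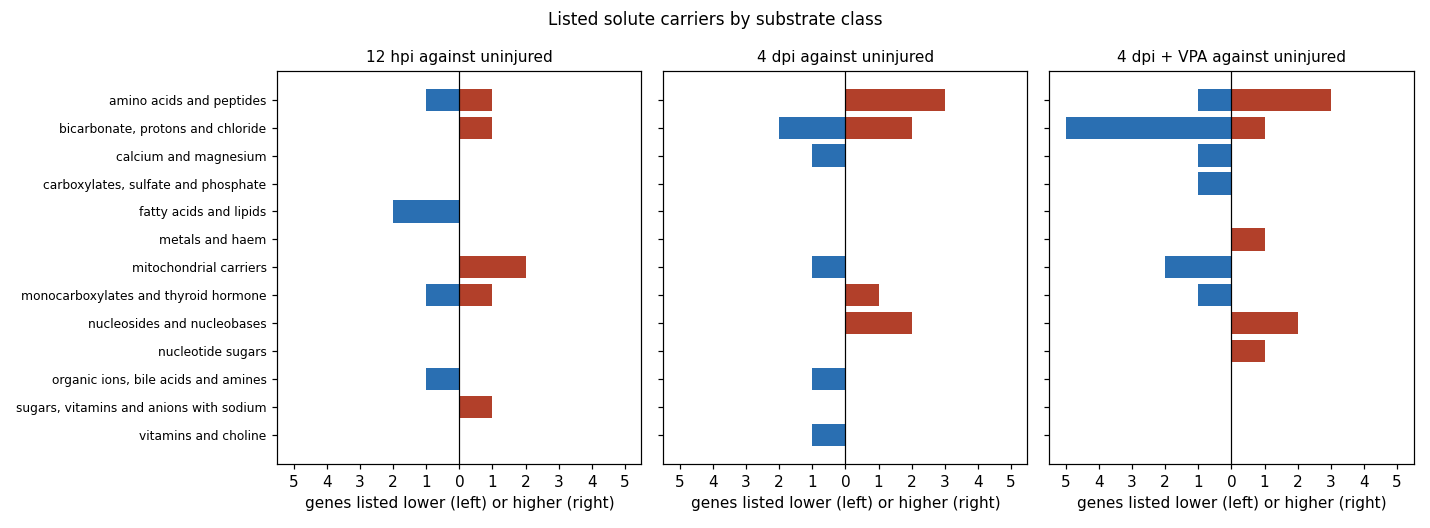
Number of solute carriers listed lower (blue, to the left) and higher (red, to the right) in each of 13 substrate classes, 1 panel per comparison. Amino acid carriers reach 3 higher at 4 dpi and at 4 dpi + VPA, with 1 lower at 12 hpi and at 4 dpi + VPA. Carriers of bicarbonate, protons and chloride reach 5 lower at 4 dpi + VPA, beside 1 higher. In the class of nucleosides and nucleobases, *slc43a3b* was placed after its values were seen.

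Of the amino acid carriers, *slc7a11*, the cystine-glutamate exchanger that supplies cysteine for glutathione, was the 1 carrier listed in all 3 comparisons. Its transcript was at 0.275 FPKM in uninjured retina, 2.13 FPKM at 12 hpi and 2.43 FPKM at 4 dpi + VPA, and the whole gene was at 0.276 FPKM without injury and 1.36 FPKM at 4 dpi. Being listed higher places all 3 injured values above the shared uninjured one, and all 3 were low. The log2 fold changes in the authors' deposited tables were 2.95 at 12 hpi (SE 1.05, p = 0.0109, q = 0.997), 2.305 at 4 dpi (SE 1.32, p = 0.0367, q = 0.999) and 3.14 at 4 dpi + VPA (SE 1.06, p = 0.0077, q = 0.997). At 4 dpi the deposited test statistic was 1.74, at which a normal distribution would give a p above 0.05. On GRCz10, *slc7a11* lies on chromosome 14 from 41519802 to 41557647.

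*slc3a2a*, the heavy chain that carries family 7 light chains to the plasma membrane, was listed higher at the 4 day time point in both tables. As a gene it was at 4.17 FPKM without injury and 17.3 FPKM at 4 dpi, and its listed transcript was at 3.48 and 13.3 FPKM at 4 dpi + VPA. *slc7a7*, a light chain for cationic and neutral amino acids needed for microglia in zebrafish, was at 0.918 FPKM in uninjured retina, 6.02 FPKM at 4 dpi and 9.29 FPKM at 4 dpi + VPA. That is 6.56-fold and 10.1-fold above the uninjured value, which was the same in the gene table and the transcript table. In the authors' deposited tables the log2 fold change of *slc7a7* was 2.71 (SE 1.03, p = 0.0153, q = 0.999) at 4 dpi and 3.34 (SE 1.01, p = 0.00505, q = 0.997) at 4 dpi + VPA. *slc7a7* lies on chromosome 7 from 19310076 to 19335574 and *slc3a2a* on the same chromosome from 20272095 to 20278479, with a gap of 937 kb between them. Macrophage and microglia markers moved with them, with 10 of 25 listed at 4 dpi, 9 of 25 at 4 dpi + VPA and 1 of 25 at 12 hpi, all higher. Their summed level was 267 FPKM without injury and 2398 FPKM at 4 dpi, largely *apoeb*, which Müller glia also express, and 30.8 and 197 FPKM for the transcripts listed at 4 dpi + VPA, where the listed *apoeb* transcript was at 0 in uninjured retina. Their part in the values of *slc7a7* was not tested.

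In contrast to the family 3 and 7 genes, a transcript of *slc38a4*, a sodium-coupled carrier of neutral amino acids, was listed lower. The same transcript was at 22.2 FPKM in uninjured retina, 6.74 FPKM at 12 hpi and 6.92 FPKM at 4 dpi + VPA, which is 3.30-fold and 3.21-fold lower. Both injured values lay close together, and being listed lower places both under the shared uninjured one. The gene has 6 annotated transcripts, values of the others were not analysed here, and *slc38a4* was not listed as a whole gene at 4 dpi. The log2 fold changes of *slc38a4* in the authors' deposited tables were -1.72 (SE 0.73, p = 0.0161, q = 0.997) at 12 hpi and -1.68 (SE 0.72, p = 0.0171, q = 0.997) at 4 dpi + VPA.

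Of the other genes of amino acid supply, a list of 32 genes of the amino acid response and of serine synthesis had 2 listed at 12 hpi, 5 at 4 dpi and 4 at 4 dpi + VPA, all higher. Of all listed genes, 64.1%, 60.3% and 57.5% were higher in these comparisons, and how many of the 32 genes were tested is unknown. The median log2 changes of the listed members were 2.23, 2.03 and 2.44, beside 3.24, 2.66 and 2.74 for all genes listed higher. Whether the list differs from other genes was not tested. *atf5a*, a stress-responsive transcription factor, was at 8.99 FPKM without injury, 60.0 FPKM at 12 hpi, 25.9 FPKM at 4 dpi and 35.9 FPKM at 4 dpi + VPA. *psat1*, an enzyme of serine synthesis, was at 3.20 FPKM in uninjured retina, 22.9 FPKM at 4 dpi and 24.5 FPKM at 4 dpi + VPA. Of 27 genes of glutathione and redox defence, 3 were higher and 1 lower at 12 hpi, 4 were higher at 4 dpi and 3 were higher at 4 dpi + VPA. Their median log2 changes were 1.65, 2.72 and 2.24. Among the higher genes each time was *txnipa*, the gene of a thioredoxin-interacting protein. That protein inhibits thioredoxin, so a higher *txnipa* does not stand for more redox defence. *txnipa* was at 9.25 FPKM without injury and at 29.9, 59.6 and 44.1 FPKM in the injured groups. Whether the listed genes reflect a use of imported cystine was not tested. *txn*, the thioredoxin gene, was at 4.31 and 82.1 FPKM at 4 dpi, while *gsr*, glutathione reductase, was at 3.47 and 14.5 FPKM. The lower entry at 12 hpi was a transcript of *prdx1*, a peroxidase gene whose whole-gene value was higher at 4 dpi, at 3.51 and 24.5 FPKM.

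The carrier with the largest fold among those with both values above 0.01 FPKM was *slc43a3b*. The human protein SLC43A3 is a facilitative carrier of purine nucleobases, which cells salvage to make nucleotides. As a gene it was at 0.803 FPKM without injury and 13.1 FPKM at 4 dpi, a 16.3-fold difference. Its listed transcript was at 0.800 FPKM without injury and 21.3 FPKM at 4 dpi + VPA, a 26.6-fold difference. In the authors' deposited tables the log2 fold change of *slc43a3b* was 4.03 (SE 1.01, p = 0.00145, q = 0.438) at 4 dpi and 4.73 (SE 1.01, p = 5e-04, q = 0.415) at 4 dpi + VPA, the lowest p of any carrier in each. By size of the log2 change it stood at place 203 of 865 genes listed higher at 4 dpi and at place 90 of 595 at 4 dpi + VPA. It lies on chromosome 14 from 16819950 to 16856628.

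*slc29a1a*, of the family of equilibrative nucleoside carriers, was listed higher in the same comparisons. It was at 2.23 FPKM in uninjured retina, 14.0 FPKM at 4 dpi and 9.39 FPKM at 4 dpi + VPA, so 6.27-fold and 4.21-fold higher. The log2 fold change in the authors' deposited tables was 2.65 (SE 0.80, p = 0.0028, q = 0.518) for *slc29a1a* at 4 dpi and 2.07 (SE 0.80, p = 0.0172, q = 0.997) at 4 dpi + VPA. Dividing-cell markers were higher in the same groups, with 10 of 20 listed at 4 dpi, from 27.6 to 287 FPKM in sum, and 4 of 20 at 4 dpi + VPA, from 4.28 to 35.2 FPKM in sum, and 0 of 20 at 12 hpi, where neither nucleoside carrier was listed. The sums cover different genes, as whole genes at 4 dpi and as transcripts at 4 dpi + VPA, so they cannot be set against each other. The part of dividing cells in the values of these carriers was not tested.

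**Figure D4:**
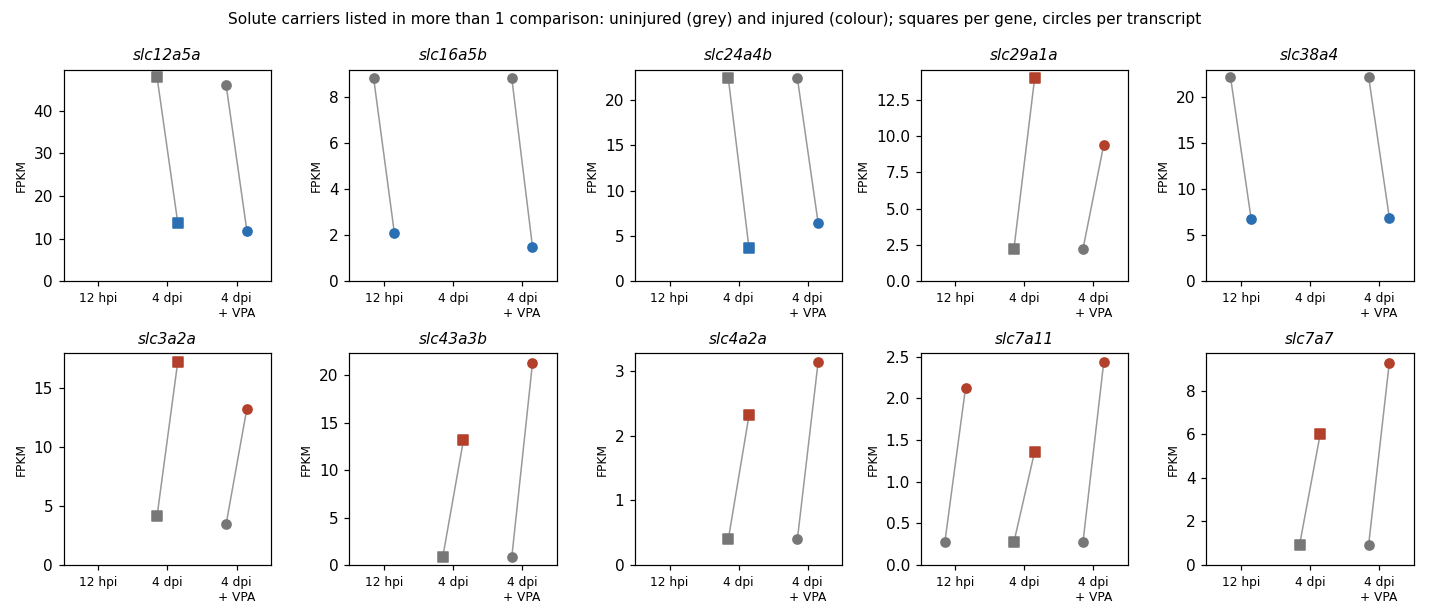
FPKM of the 10 solute carriers listed in more than 1 comparison, on linear axes from 0, with the uninjured value (grey) joined to the injured value (red higher, blue lower) in each comparison; squares are whole genes, circles single transcripts, and empty places are comparisons in which the carrier was not listed. Each of the 10 has the same direction wherever it is listed, all comparisons share the uninjured value, and all listed genes were not counted in this way.

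Only part of the carriers could be followed over more than 1 comparison. Besides *slc7a11*, 7 were listed at 4 dpi and at 4 dpi + VPA, and 2, *slc16a5b* and *slc38a4*, at 12 hpi and at 4 dpi + VPA. The overlap between comparisons was not counted over all listed genes, so whether carriers differ from them in this is unknown. All comparisons share the uninjured value, so a shared direction is not independent evidence. *slc7a7* and *slc29a1a* have 1 annotated transcript each, so their gene and transcript values at 4 days can be set side by side. The level at 4 dpi + VPA was 1.54 times that at 4 dpi for *slc7a7* and 0.671 times for *slc29a1a*. The other carriers listed in both have more than 1 annotated transcript, and a gene value may hold transcripts that the transcript value leaves out. With 1 value per group, whether these ratios exceed the spread between fish was not tested.

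Carriers of acid and base diverged by member. *slc4a2a*, a chloride-bicarbonate exchanger, was at 0.399 FPKM in uninjured retina, 2.32 FPKM at 4 dpi and 3.14 FPKM at 4 dpi + VPA. *slc4a7*, a sodium-bicarbonate cotransporter, was at 2.41 and 8.27 FPKM at 4 dpi. *slc4a4a*, the electrogenic sodium-bicarbonate cotransporter by which glia and epithelia move base, was instead at 35.8 FPKM without injury and 14.0 FPKM at 4 dpi, and the authors' deposited table gave its log2 fold change as -1.35 (SE 1.18, p = 0.0441, q = 0.999). The deposited test statistics at 4 dpi were only -1.15 for *slc4a4a* and 1.63 for *slc4a2a*. A normal distribution at these would give a p above 0.05. A transcript of *slc4a10b*, a sodium-dependent bicarbonate carrier of neurons, was at 58.6 and 21.1 FPKM at 4 dpi + VPA. Of these family 4 genes, the lower ones had higher uninjured levels than the higher ones. All listed genes had this order too, so it is not particular to them. Median uninjured levels of all genes listed lower and higher were 24.4 and 2.19 FPKM at 4 dpi, and 17.0 and 1.65 FPKM at 4 dpi + VPA. Of 19 carbonic anhydrase genes, which make the bicarbonate that family 4 carries, *ca2* was at 191 and 60.1 FPKM and *ca7* at 18.4 and 3.29 FPKM at 12 hpi, *ca4a* was at 7.33 and 0.992 FPKM at 4 dpi + VPA, and 0 were listed at 4 dpi.

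At 12 hpi the 1 listed carrier of this class was *slc4a1a*, the anion exchanger of the red blood cell membrane, at 0.540 FPKM without injury and 2.68 FPKM. Red blood cell markers were higher at 12 hpi too, with 2 of 19 listed, from 53.7 to 352 FPKM in sum. They were the globin gene *ba1* at 53.7 and 349.6 FPKM and a transcript of *sptb*, a spectrin of the red cell skeleton, at under 0.01 and 2.28 FPKM. At 4 dpi and 4 dpi + VPA, 0 red blood cell markers were listed, and neither was *slc4a1a*. The part of blood in the value of *slc4a1a* was not tested.

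Cation-chloride carriers of family 12 were lower wherever listed. *slc12a5a*, the potassium-chloride cotransporter that keeps chloride low in mature neurons, was at 47.9 FPKM as a gene in uninjured retina and 13.7 FPKM at 4 dpi, and its transcript was at 46 and 11.9 FPKM at 4 dpi + VPA. The log2 fold changes of *slc12a5a* in the authors' deposited tables were -1.81 (SE 0.73, p = 0.014, q = 0.985) at 4 dpi and -1.95 (SE 0.74, p = 0.00935, q = 0.997) at 4 dpi + VPA. A pair of tandem genes, *slc12a10.2* and *slc12a10.3*, was listed lower at 4 dpi + VPA, the former at 2.80 and 0.563 FPKM and the latter at 1.98 and 0.287 FPKM. They stand 4.41 kb apart on chromosome 7, from 4194403 to 4242422 and from 4246836 to 4282175. Reads shared between such neighbouring copies could have been split by the counting, so their values are uncertain. *slc26a6*, an anion exchanger gene, was at 2.07 and 0.255 FPKM in the same comparison.

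*slc24a4b*, of the family that exchanges sodium for calcium and potassium, was at 22.4 FPKM in uninjured retina, 3.65 FPKM at 4 dpi and 6.47 FPKM at 4 dpi + VPA. Its fold of 6.14 was the largest among carriers listed lower at 4 dpi, and the log2 fold change of *slc24a4b* in the authors' deposited tables was -2.62 (SE 0.84, p = 0.004, q = 0.554) at 4 dpi and -1.79 (SE 0.78, p = 0.0252, q = 0.997) at 4 dpi + VPA. Of 40 photoreceptor markers, 3 were listed lower in each comparison and 2, 1 and 1 higher at 12 hpi, 4 dpi and 4 dpi + VPA. The sum of those listed was 303 FPKM in uninjured retina against 110 FPKM at 4 dpi, and 455 against 186 FPKM at 4 dpi + VPA, and at 12 hpi it was 404 against 361 FPKM. These sums cover different genes, as whole genes at 4 dpi and as transcripts at 12 hpi and 4 dpi + VPA. The part of photoreceptors in the values of *slc24a4b* was not tested.

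Monocarboxylate carriers of family 16 were listed in both directions. *slc16a3*, which exports lactate from glycolytic cells, was at 14.3 FPKM without injury and 43.9 FPKM at 12 hpi, a 3.08-fold difference (log2 fold change 1.62, SE 0.76, p = 0.0309, q = 0.997 by the authors' deposited table). *slc16a9a* was at 3.81 and 13.045 FPKM at 4 dpi. *slc16a5b* was lower, with 1 transcript at 8.83 FPKM in uninjured retina, 2.11 FPKM at 12 hpi and 1.502 FPKM at 4 dpi + VPA. The lactate exporter was listed at 12 hpi alone and *slc16a9a* at 4 dpi alone, so each could have only 1 direction. The entries of *slc16a5b* share the uninjured value, so their shared direction is not independent evidence. Sugar carriers of families 2, 37, 45 and 50 had 0 members listed under a name of the rule, and the 1 listed member of family 5 was *slc5a3b*, which takes up myo-inositol with sodium, at 7.66 and 23.7 FPKM at 12 hpi.

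Genes of glucose breakdown were listed too. Of 46 genes of glycolysis and lactate, 1 was listed at 12 hpi, 1 at 4 dpi and 3 at 4 dpi + VPA. In all, 599, 1434 and 1036 genes were listed in these comparisons, out of an unknown number tested. Whether these counts differ from those of other genes is thus unknown. *hk2*, the hexokinase of many glycolytic tissues, was at 0.552 FPKM in uninjured retina, 7.87 FPKM at 12 hpi and 5.03 FPKM at 4 dpi + VPA. *pfkfb4b*, a kinase and phosphatase that sets the pace of glycolysis, was at 145 and 17.8 FPKM as a gene at 4 dpi and at 82.1 and 12.2 FPKM as a transcript at 4 dpi + VPA. A transcript of *eno1a*, an enolase gene, was at 1.14 FPKM without injury and listed at 0 at 4 dpi + VPA. A list of 34 genes of the citric acid cycle and pyruvate entry also held *mdh1ab*, the gene of a cytosolic malate dehydrogenase outside the cycle itself. Of this list, *mdh1ab* was at 155 and 45.5 FPKM at 12 hpi, *ogdhb* was at 48.1 and 12.0 FPKM at 4 dpi, and 0 were listed at 4 dpi + VPA.

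Among the mitochondrial carriers of family 25, the highest level of any listed carrier was that of *slc25a22* at 12 hpi. Its listed transcript was at 24.7 FPKM without injury and 160 FPKM at 12 hpi, and the log2 fold change of *slc25a22* in the authors' deposited table was 2.70 (SE 0.91, p = 0.00805, q = 0.997). The gene has 6 annotated transcripts, and values of the others were not analysed here. The deposited annotation calls its protein a mitochondrial glutamate carrier, while the gene is now named slc25a55a, so its substrate is uncertain here. A transcript of *slc25a18*, also of the glutamate carriers of mitochondria, was listed at 0 without injury and at 2.42 FPKM at 12 hpi, with p = 0.0498 in the authors' deposited table. *slc25a33*, a pyrimidine nucleotide carrier of mitochondria in humans, had the highest uninjured level of any listed carrier, at 143 FPKM, and was at 48.5 FPKM at 4 dpi. Calcium-regulated carriers of ATP-magnesium and phosphate were lower at 4 dpi + VPA, with *slc25a25b* at 55.8 and 17.8 FPKM and *slc25a23a* at 6.82 and 1.97 FPKM. *slc25a22* lies on chromosome 6 from 49096982 to 49108393 and *slc25a33* on chromosome 23 from 29934701 to 29952102.

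Both listed members of family 27, which bring long-chain fatty acids into cells and activate them, were lower at 12 hpi. *slc27a6* was at 16.8 FPKM without injury and 3.94 FPKM at 12 hpi, and the authors' deposited table gave its log2 fold change as -2.09 (SE 0.83, p = 0.0139, q = 0.997). The listed transcript of *slc27a2b* was at 4.01 FPKM without injury and under 0.01 FPKM at 12 hpi. A transcript of *slc47a1*, a carrier that extrudes organic cations, was likewise at 1.505 and under 0.01 FPKM. For these transcripts the test statistic of the authors' deposited table was -0.080 and -0.011, beside p-values of 0.0350 and 0.0480, so a fold change and its SE have no use here. The genes have 3 and 5 annotated transcripts, and values of their other transcripts were not analysed here.

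Carriers of vitamins, metals and other solutes were single listings. *slc23a2*, the sodium-coupled carrier of ascorbate in neural tissue, was at 23.9 FPKM without injury and 8.59 FPKM at 4 dpi, and the authors' deposited table gave its log2 fold change as -1.47 (SE 0.71, p = 0.0373, q = 0.999). *slc22a23*, an organic ion carrier by family, was at 29.95 and 8.62 FPKM at 4 dpi. *slc13a2*, a carrier of citrate cycle dicarboxylates with sodium, was at 4.70 and 0.884 FPKM at 4 dpi + VPA. Listed higher at 4 dpi + VPA were *slc39a7*, which releases zinc from the endoplasmic reticulum, at 9.23 and 30.6 FPKM, and *slc35f6*, of the nucleotide sugar family by number, at 4.51 and 15.1 FPKM. Of 25 genes of iron and haem handling, *steap4*, a metalloreductase, was the 1 listed in each comparison, at 1.59 FPKM without injury and 9.20, 8.83 and 14.7 FPKM at 12 hpi, 4 dpi and 4 dpi + VPA.

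A few solute carriers stand in the tables under a human-style name in capitals and were left out by the rule. Their names were seen with their values. SLC45A4, a family 45 gene, was at 118 FPKM in uninjured retina, 9.47 FPKM at 4 dpi and 17.2 FPKM at 4 dpi + VPA. The authors marked it significant at 4 dpi, where the log2 fold change of SLC45A4 stood at -3.64 in the authors' deposited table (SE 0.79, p = 5e-05, q = 0.0421), a larger difference than that of the 6 carriers listed lower by the rule. SLC7A1, a cationic amino acid carrier, was at 0.604 and 3.14 FPKM at 4 dpi, the same direction as *slc7a7*. SLC22A14 was at 30.2 and 7.11 FPKM at 12 hpi. SLC9A3R2 encodes a scaffold protein and no carrier. The families left out by the rule held 7 listed genes, among them *slc6a8*, the creatine carrier, at 78.8 and 17.1 FPKM at 4 dpi, *slc1a4*, a neutral amino acid carrier, at 2.62 and 12.8 FPKM at 4 dpi + VPA, and *slc6a14*, an amino acid carrier, listed at 0 and at 2.07 FPKM at 4 dpi. The authors marked *slc6a14* significant at 4 dpi too (p = 5e-05, q = 0.0421 in the authors' deposited table), at a low level.

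Carriers listed lower had a longer median genomic span, introns included, than those listed higher, by little at 4 dpi + VPA. The median span on the genome was 77.2 kb for carriers lower at 4 dpi and 37.3 kb for those higher, beside 48.1 and 10.5 kb for all genes listed lower and higher. At 12 hpi it was 32.7 and 20.04 kb for carriers, beside 32.1 and 9.31 kb for all, and at 4 dpi + VPA it was 35.3 and 31.1 kb for carriers, beside 34.8 and 11.1 kb for all. Carriers shared the order seen in all listed genes, and whether gene length or RNA quality has a part in the directions was not tested.

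Markers of other tissues and of glia were listed in unequal numbers. Of 25 lens markers, 8 were listed at 12 hpi, 6 at 4 dpi and 8 at 4 dpi + VPA, all higher. Their sum was 3.04 FPKM in uninjured retina against 353, 158 and 735 FPKM in the injured groups. The sums are of whole genes at 4 dpi and of transcripts at 12 hpi and 4 dpi + VPA. The markers *cryaa*, *crygm3*, *crygs4* and *lim2.1* were at 0 in uninjured retina in each comparison. Of 16 pigment epithelium markers 1 was higher and 1 lower at 4 dpi + VPA, from 24.7 to 59.4 FPKM in sum, and 0 were listed in the other groups. Of 21 endothelial markers, *cldn5a* and *cldn5b* were listed, both higher at 4 dpi, from 2.46 to 27.8 FPKM in sum, and 0 in the other comparisons. Of 14 Müller glia markers, 2 were lower at 12 hpi, 4 were higher at 4 dpi and 4 were higher at 4 dpi + VPA, with sums of 106 and 28.5 FPKM, 311 and 3482 FPKM, and 50.9 and 611 FPKM. Those lower at 12 hpi were *aqp4* and *slc1a2b*. Those higher in both 4 day groups were *apoeb*, *fabp7a*, *gfap* and *vim*, so the sums cover different genes. At 4 dpi *apoeb*, also on the macrophage list, was at 2111 FPKM and *fabp7a* at 1191 FPKM. The *apoeb* transcript listed at 4 dpi + VPA was at 0 in uninjured retina. The parts of lens, vessels and glia in the levels of the carriers were not tested.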

How the data were processed

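RNA was taken from whole zebrafish retinae, 1 labelled sample in each of 4 groups. Per the submitters' processing notes, Bowtie2 2.2.2, TopHat2 2.1.0, Cufflinks 2.2.1 and build GRCz10 were used. The authors deposited 6 tables, which hold FPKM values per gene (4 dpi) or transcript (12 hpi and 4 dpi + VPA). Per the file headers, the authors' log2 fold change, test statistic (a score), p-value and q-value stand beside them, and the log2 fold changes of carriers with both values at 0.01 FPKM or more matched the log2 ratio of the deposited FPKM values within 7.82e-06. The tables were filtered by the authors, as read from the values, and how many genes were tested is not stated in the labels or files.

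With Python 3.11.15 and pandas 2.3.3, carriers were selected by name and counted as distinct genes; genes with transcripts in both directions were left out. Log2 changes used a pseudocount of 0.1 FPKM, which understates the change of low genes. The SE was obtained by dividing the log2 fold change by the test statistic. It ranged from 0.714 to 1.56 over 41 entries with both values at 0.01 FPKM or more (median 0.850). For 5 of 43 entries with a statistic (*slc27a2b* and *slc47a1* at 12 hpi, *slc4a2a*, *slc7a11* and *slc4a4a* at 4 dpi) a normal distribution at that statistic would give a p above 0.05, so this SE and the deposited p differ there. The scripts were tested on simulated data.

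The carriers, substrate classes and 14 gene lists (6 of pathways, 8 of cell types) were chosen with earlier results of these data known; *slc43a3b* was placed with the nucleoside carriers after its values were seen. Named were carriers listed in more than 1 comparison, those marked significant, up to 10 per direction with at least 5 FPKM, and the most abundant of each class; the few others are named too, with values seen. Of the 33 gene IDs, 32 have a symbol in the current name table. No protein or promoter sequences were used here. A result among the names in capitals is not reported here.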

Additional observations from a re-analysis of the deposited data

How the results depend on the processing

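At a p of at most 0.01 the counts of carriers higher and lower were 1 and 0 at 12 hpi, 2 and 1 at 4 dpi, and 3 and 1 at 4 dpi + VPA. With at least 5 FPKM in the higher group, 3 were higher and 3 lower at 12 hpi, and 7 were lower at 4 dpi + VPA. Counting all slc families gave 10 lower at 4 dpi. The other alternatives kept these counts within 1.5 times. The median over both directions, which depends on how many genes fall on each side, was 1.62 at 12 hpi, 1.74 at 4 dpi and -1.64 at 4 dpi + VPA. It was 1.26, 1.07 and -1.28 at a pseudocount of 1 FPKM, and 1.77 at 4 dpi and -1.65 at 4 dpi + VPA at 0.01 FPKM. With names in capitals, an alternative chosen after seeing the data, it was -0.045 at 12 hpi, where adding 1 lower gene made the sides equal, and -1.66 at 4 dpi + VPA. At a pseudocount of 1 FPKM, carriers listed higher had medians of 1.54, 1.68 and 1.65 at 12 hpi, 4 dpi and 4 dpi + VPA. Those listed lower had -1.66, -1.61 and -1.55. The medians of all listed genes were not recomputed at other pseudocounts. No paired analysis was possible because each group has 1 value, and no replicate could be left out for the same reason. Unknown depth limits the reading of carriers under about 1 FPKM.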
